A study of Mus musculus with 42 samples.

Results

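The ribosome biogenesis and RNA polymerase I (Pol I) genes are 45 genes whose products transcribe, modify, cut and package ribosomal RNA in the nucleolus, followed here in regulatory (Treg) and conventional (Tconv) CD4+ T cells of the mouse after an antibody against CD3. They were found by gene symbol. Of the rows of the array table, each a transcript cluster (the probes that the array assigns to a transcript), the row whose platform annotation named a member and no other gene was taken, and for a symbol with several such rows the one with the highest mean. Such a row was found for 43 of the 45 genes, among 19752 symbols in all. Ppan, whose row carried a second name, and Noc2l were not analysed here. All 43 passed the filter on dim signal that left 12425 genes for testing, and 35 of the 43 were above the array's own median on all 42 arrays. Fbl, Wdr12 and Ddx18 had 2 rows each, which agreed in direction over the 8 responses at 2 and 8 h.

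Ribosomes are built in the nucleolus. Pol I copies the repeated ribosomal DNA into a long precursor RNA, small nucleolar ribonucleoproteins (snoRNPs) mark bases of that precursor for methylation or pseudouridylation, and large sets of assembly factors fold, cut and export the small and the large subunit. A resting T cell makes few ribosomes, and a T cell that is triggered through its antigen receptor enlarges its nucleoli before it divides, a step in which the transcription factor Myc is known to take part. The 43 genes were read in 5 roles: 6 of Pol I and its factors, 8 snoRNP proteins, 12 of the small subunit, 11 of the large subunit, and 6 nucleolar scaffold proteins and regulators.

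All cells came from spleens of NOD mice, which are prone to autoimmune diabetes, with the Foxp3-IRES-GFP allele, in which cells that transcribe Foxp3, the factor that specifies Treg, also make green fluorescent protein (GFP). In vivo, female mice of 8 weeks were injected intravenously with KT3, an antibody against CD3, or with rat IgG as control; the dose is not in the labels, and the 0 h arrays are of non-treated mice. In vitro, splenocytes labelled Foxp3-IREs-GFP+/+ were cultured with 1.25 µg/ml KT3 before sorting. Number 1 came from a female of 9 weeks and number 2 from a male of 14 weeks, so sex and age go with the number. Cells negative for B220, CD8a, CD11b and CD11c and positive for CD4 were sorted as GFP+ (Treg) or GFP- (Tconv). Each cell type and setting was measured at 0, 2, 8, 24 and 72 h with 2 arrays per group, numbered 1 and 2, and rat IgG at 24 h in vivo with 1 array per cell type, which makes 22 groups and 42 arrays.

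The labels of the cultured Treg give GFP-, but Foxp3 was at 11.52 to 12.34 (log2 intensity, median 11.89) on these 10 arrays, against 7.03 to 8.20 (median 7.40) on the 10 cultured Tconv arrays; in vivo it was at 11.30 to 12.26 in Treg and 7.02 to 7.76 in Tconv (11 arrays each). The cultured Tconv array at 0 h with number 1 correlated less with the rest (mean r = 0.787, against 0.91 for the next lowest array), and values that rest on it are given with and without it, under the name of the array that stood apart. Over 30 markers of other blood cells the mean level was 6.20 to 7.08 on the 10 in vivo arrays of number 1, most of them single-sorted, and 5.47 to 5.73 on the 12 of number 2, most of them double-sorted. In bulk RNA, fewer cells of a type and less RNA per cell cannot be told apart. In vivo the labels do not say that arrays of a group are of separate animals, so their spread may be technical. In culture the 2 arrays of a group are of mice of different sex and age, so their spread goes with sex and age. The p-values cover the spread between arrays alone, and the number of arrays limits the precision. All values below are log2 intensities or differences between them, tested with limma in 1 fit of all arrays with Benjamini-Hochberg adjustment over the 12425 genes, and the threshold for a call was 0.05.

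After KT3 in vivo most of these genes rose at 2 h and at 8 h in both cell types, and at most 1 was called at 24 and 72 h. In Treg, 35 of 43 rose at 2 h and 35 at 8 h, and none fell; over all genes tested 5.04% and 6.36% were called higher at these times. In Tconv, 27 rose at 2 h and 41 at 8 h, where 3.04% and 14.4% of all genes were called higher. The median change over the members was 1.77 (3.41-fold) at 2 h and 1.49 at 8 h in Treg, and 1.35 at 2 h and 1.75 at 8 h in Tconv, while the median over all genes stayed within 0.1 of 0 in each of these comparisons.

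The members' median level rose at 2 and 8 h and was lower again at 24 h on the arrays of both numbers. In Treg it was 8.36 and 8.07 at 0 h, 9.89 and 9.68 at 2 h, 9.64 and 9.50 at 8 h, 8.89 and 8.63 at 24 h, and 8.35 and 8.20 at 72 h, on the arrays of number 1 and 2 in this order. In Tconv it was 8.75 and 8.60 at 0 h, 10.21 and 9.62 at 2 h, 10.35 and 10.14 at 8 h, 8.32 and 8.64 at 24 h, and 8.33 and 8.41 at 72 h. At 24 h the Tconv level was below that of 0 h on number 1 and slightly above it on number 2. Arrays of 2 and 8 h lay above all others in both cell types. At 24 h no member was called in Treg (median 0.35, 7 at an unadjusted p under 0.05 in limma; 0.483% of all genes called), and in Tconv only Rrs1 was, lower by 1.06 (0.129% of all genes called lower). At 72 h 0 were called in either cell type, with 0 members in Treg and 5 in Tconv at an unadjusted p under 0.05 in limma (0.0241% and 0.29% of all genes called). All responses of an arm share its 0 h arrays. Leaving out single arrays moved the Tconv count at 2 h most, to 13 without 0 h number 2 and 10 without 2 h number 1, and the Treg count at 8 h to 23 without 0 h number 2 or 8 h number 1.

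**Figure D1:**
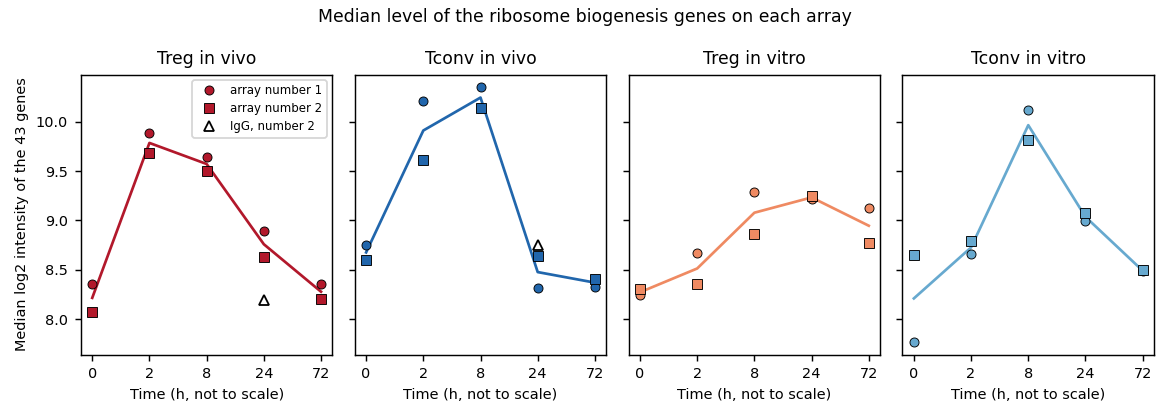
Median log2 intensity over the 43 members on each array (vertical axis) against time after KT3 in hours (horizontal axis, time points evenly spaced), with 1 panel per cell type and setting. Circles are arrays of number 1, squares of number 2, open triangles the rat IgG arrays, and lines join group means. In vivo the 2 h and 8 h arrays lie above the arrays of the other times, between 9.50 and 10.35.

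The mean of the markers of other blood cells changed by 0.20 and -0.08 at 2 h between the Treg arrays of number 1 and 2. Of the 30 markers 19 and 10 were higher in these pairs, and the members' median changed by 1.78 and 1.75. At 8 h, 24 of 30 markers were higher between the Treg arrays of number 1 (mean change 0.66) and 8 of 30 between those of number 2 (mean change -0.08). The members' median change was 1.46 and 1.54 in these same pairs. In Tconv the marker means changed by 0.17 and 0.01 at 2 h, with 20 and 16 of 30 higher. At 8 h they changed by -0.10 and -0.12, with 10 of 30 higher in each pair. The member medians were 1.43 and 1.21 at 2 h and 1.79 in both pairs at 8 h. The part of the other cells in the in vivo changes was not tested.

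Among the genes of Pol I itself the catalytic core moved in vivo. The DNA-binding factor did not pass the test there in the fit of all arrays. Polr1b, which forms the catalytic core together with Polr1a, had the largest mean change of this role over all 16 responses. In Treg in vivo it read 7.70 and 7.62 at 0 h, 10.10 and 9.66 at 2 h, 9.43 and 9.27 at 8 h, 7.99 and 7.82 at 24 h, and 7.41 and 7.11 at 72 h. In Tconv it read 8.26 and 7.99 at 0 h, 10.32 and 9.83 at 2 h, 10.27 and 10.11 at 8 h, 7.62 and 7.80 at 24 h, and 7.50 and 7.31 at 72 h. The 2 h and 8 h arrays did not overlap with the others. Polr1b rose by 2.22 ± 0.24 (SE, n = 2 per group; limma, adjusted p = 9.74e-07) at 2 h and 1.69 at 8 h in Treg, and by 1.95 at 2 h and 2.06 at 8 h in Tconv.

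Polr1c, a subunit that Pol I shares with Pol III, was called at 8 h and not at 2 h in both cell types. In Treg it was at 8.33 and 8.07 at 0 h, 9.19 and 8.85 at 2 h, and 9.31 and 9.05 at 8 h. In Tconv it was at 8.99 and 8.61 at 0 h, 10.05 and 9.09 at 2 h, and 10.33 and 9.83 at 8 h. The changes at 2 h were 0.82 in Treg and 0.77 in Tconv (limma, adjusted p = 0.116 and 0.198). The 8 h and 0 h groups did not overlap, and the differences were 0.98 ± 0.30 (limma, adjusted p = 0.0352) in Treg and 1.27 ± 0.30 (limma, adjusted p = 0.00257) in Tconv. The Treg call was lost without any of its 4 arrays (adjusted p of 0.0814 to 0.266), and the Tconv call without 0 h number 2 or 8 h number 1 (0.053 to 0.0639). Ubtf, the HMG-box protein that covers active ribosomal DNA, stayed between 9.47 and 9.83 on all Treg arrays with KT3 or at 0 h in vivo. On the Tconv arrays it ran from 9.46 to 10.23, with its highest values of 10.23 and 10.07 at 8 h against 9.62 and 9.58 at 0 h, a difference of 0.55 that missed the threshold (limma, adjusted p = 0.0593). In the fit without the array that stood apart, which is in no in vivo group, all 43 members rose at 8 h in Tconv in vivo, Ubtf among them. Of the 6 Pol I genes, 4 rose at 2 h and 4 at 8 h in Treg, and 2 at 2 h and 5 at 8 h in Tconv, with medians of 1.08, 0.97, 0.74 and 1.13. The role also holds Polr1a, the largest subunit, Polr1e, and Rrn3, the factor that brings Pol I to the promoter. Ubtf was called in 2 of the 16 responses over both settings. All 6 genes of the role rose at 8 h in cultured Tconv, with Ubtf rising by 0.82. The change of Ubtf there was 0.32 without the array that stood apart.

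Since members of all roles moved together, their promoters were searched for CACGTG, an E-box that Myc and Max are known to bind and that is its own reverse complement, so that 1 search covers both strands. RefSeq windows of 300 bases in GRCm38.p6, from 250 bases before to 50 after the gene start, were matched to 40 of the 45 genes. CACGTG stood in a window of 8 of the 40 genes (20%: Nop2, Tsr1, Wdr43, Mybbp1a, Nle1, Utp20, Pes1, and Rrn3 with 2 copies). Of all 27025 genes with a window, 2187 held it (8.09%). A gene with several windows counted once, and these genes were not limited to those tested on the arrays. A match is a description of the letters and not of a bound site. The 4 windows with the motif whose genes had the largest mean change at 2 h in vivo, and the 2 so ranked without it, are shown 5′ to 3′ on the gene's strand, with the motif in capitals.
Nop2: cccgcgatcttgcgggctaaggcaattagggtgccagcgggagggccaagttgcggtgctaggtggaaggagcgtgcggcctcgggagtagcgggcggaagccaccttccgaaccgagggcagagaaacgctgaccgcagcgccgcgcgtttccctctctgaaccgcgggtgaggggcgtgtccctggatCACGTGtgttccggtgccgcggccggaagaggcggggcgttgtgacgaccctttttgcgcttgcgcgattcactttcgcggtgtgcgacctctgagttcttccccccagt
Tsr1: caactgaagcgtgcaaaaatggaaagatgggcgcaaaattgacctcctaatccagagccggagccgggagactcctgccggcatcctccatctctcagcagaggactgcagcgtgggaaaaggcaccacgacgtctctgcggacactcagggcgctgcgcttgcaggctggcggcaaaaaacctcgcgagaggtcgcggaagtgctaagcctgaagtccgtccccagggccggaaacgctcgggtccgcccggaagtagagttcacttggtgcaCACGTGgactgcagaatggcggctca
Wdr43: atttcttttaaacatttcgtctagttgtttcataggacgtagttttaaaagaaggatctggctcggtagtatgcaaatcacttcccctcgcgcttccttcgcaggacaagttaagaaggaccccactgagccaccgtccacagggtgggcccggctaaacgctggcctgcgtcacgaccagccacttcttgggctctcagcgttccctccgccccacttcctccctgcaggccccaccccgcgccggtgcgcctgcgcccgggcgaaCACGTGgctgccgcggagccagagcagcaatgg
Mybbp1a: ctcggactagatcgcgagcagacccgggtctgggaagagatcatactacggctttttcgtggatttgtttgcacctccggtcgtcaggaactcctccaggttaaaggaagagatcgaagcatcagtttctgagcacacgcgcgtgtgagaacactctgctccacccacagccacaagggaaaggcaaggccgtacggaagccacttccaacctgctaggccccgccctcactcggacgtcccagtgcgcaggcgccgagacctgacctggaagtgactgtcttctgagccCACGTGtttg
Gnl3: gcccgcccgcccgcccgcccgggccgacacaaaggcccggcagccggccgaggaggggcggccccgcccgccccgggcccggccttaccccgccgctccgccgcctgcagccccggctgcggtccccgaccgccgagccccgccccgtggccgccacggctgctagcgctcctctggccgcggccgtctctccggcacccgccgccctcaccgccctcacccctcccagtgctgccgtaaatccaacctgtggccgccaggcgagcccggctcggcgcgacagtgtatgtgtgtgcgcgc
Polr1b: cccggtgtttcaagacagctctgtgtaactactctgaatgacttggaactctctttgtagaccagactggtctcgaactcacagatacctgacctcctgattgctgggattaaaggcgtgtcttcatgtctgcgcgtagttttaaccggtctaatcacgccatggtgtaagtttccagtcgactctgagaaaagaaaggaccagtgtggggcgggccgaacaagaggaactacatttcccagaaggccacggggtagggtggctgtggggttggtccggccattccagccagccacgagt
The windows lie at chr6:125131633-125131932 (+) for Nop2, chr11:74897830-74898129 (+) for Tsr1, chr17:71615965-71616264 (+) for Wdr43, chr11:72441077-72441376 (+) for Mybbp1a, chr14:31019082-31019381 (-) for Gnl3 and chr2:129100746-129101045 (+) for Polr1b. The motif began 60 bases before the start in Nop2 and 24, 17 and 40 bases after it in Tsr1, Wdr43 and Mybbp1a. Gnl3 and Polr1b, with mean changes of 2.24 and 2.09 at 2 h in vivo over both cell types, had the letters nowhere in their window. The 4 shown with the motif had mean changes of 1.67 to 1.93, and the lowest of the 8 with it was Rrn3 at 0.83. The genes shown are the top of each rank, so they do not compare genes with and without the motif.

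The snoRNP proteins rose in 5 of 8 cases at 2 h and at 8 h in Treg, and in 4 of 8 at 2 h and 8 of 8 at 8 h in Tconv. They fall in 2 classes. The box C/D particles guide methylation, with the methyltransferase Fbl and its partners Nop56 and Nop58. The H/ACA particles guide pseudouridylation, with the synthase Dkc1 and its partners Nhp2, Gar1 and Nop10; Rrp9 belongs to the U3 particle that takes part in cutting the precursor. Median changes were 1.71 and 1.64 in Treg and 1.26 and 1.86 in Tconv at 2 and 8 h. In Nop58 a large change missed the threshold. In Treg in vivo it was at 11.28 and 11.43 at 2 h against 9.20 and 9.09 at 0 h, a difference of 2.21 ± 0.69 that was not called (limma, adjusted p = 0.0554).

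The standard error of Nop58 comes from the spread over all groups, and in vivo its Tconv arrays of number 2 were higher than those of number 1 at every time. In Tconv in vivo it read 8.43 and 9.54 at 0 h, 10.20 and 11.10 at 2 h, 10.66 and 11.61 at 8 h, 7.99 and 9.31 at 24 h, and 7.98 and 8.93 at 72 h. The difference at 8 h was 2.15 (limma, adjusted p = 0.0262), a call that was lost without 0 h number 1 (adjusted p of 0.241) or 8 h number 2 (0.216). Dkc1, Ddx10, Ncl and Npm1 shared such large errors, of 0.47 to 0.61, and these 4 were not called at 2 or 8 h in Treg in vivo. At 0 h in cultured Tconv Nop58 was at 5.10 on the array that stood apart and 8.62 on the other, and Ncl at 6.52 and 9.97. These gaps were wider than those within any in vivo group. The array that stood apart is in no in vivo group but adds to the shared spread. Without it 39 and 40 of 43 members rose at 2 and 8 h in Treg in vivo, and 36 and 43 in Tconv in vivo.

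Nhp2 was at 9.57 and 9.14 at 2 h, 9.61 and 9.27 at 8 h and 7.83 and 7.56 at 0 h in Treg, and at 10.84 and 10.26 at 8 h against 8.77 and 8.25 at 0 h in Tconv. It rose by 1.66 ± 0.39 (limma, adjusted p = 0.00741) at 2 h and 1.75 at 8 h in Treg, and by 2.04 at 8 h in Tconv. Both Treg calls were lost without 0 h number 2 or without number 1 of 2 h or 8 h (adjusted p of 0.104 to 0.17 at 2 h and 0.0667 to 0.0723 at 8 h). Nop10, the smallest H/ACA protein, had overlapping groups in Treg, with 9.41 and 8.68 at 8 h against 8.81 and 8.04 at 0 h. In Tconv it was at 10.59 and 10.14 at 8 h against 9.52 and 8.80 at 0 h, a rise of 1.21 ± 0.42 (limma, adjusted p = 0.0425) that was lost without 0 h number 2, 8 h number 1 or 8 h number 2 (0.0696 to 0.32).

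Of the 12 small subunit genes 11 rose at 2 h and 11 at 8 h in Treg, and 8 at 2 h and 11 at 8 h in Tconv. Most encode parts of the small subunit processome, the particle that forms on the precursor while it is being transcribed. Noc4l, whose yeast relative partners Nop14 in that particle, had close replicates. In Treg in vivo it read 8.93 and 8.77 at 0 h, 10.71 and 10.63 at 2 h, 10.21 and 10.45 at 8 h, 9.24 and 9.04 at 24 h, and 8.68 and 8.71 at 72 h. In Tconv it read 8.81 and 8.60 at 0 h, 10.89 and 10.37 at 2 h, 10.61 and 10.49 at 8 h, 9.09 and 9.02 at 24 h, and 8.62 and 8.47 at 72 h. It rose by 1.82 ± 0.21 (limma, adjusted p = 1.84e-06) and 1.49 in Treg and by 1.93 ± 0.21 (limma, adjusted p = 9.81e-07) and 1.84 in Tconv at 2 and 8 h. Noc4l was the only member with its highest Tconv in vivo group mean at 2 h; the other 42 had it at 8 h.

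Wdr75, a WD-repeat protein of the processome, was at 9.89 and 9.52 at 2 h against 8.00 and 7.63 at 0 h in Treg, and at 9.65 and 9.95 at 8 h against 7.68 and 8.07 at 0 h in Tconv. It rose by 1.89 ± 0.28 (limma, adjusted p = 5.92e-05) in Treg and by 1.93 ± 0.28 (limma, adjusted p = 2.21e-05) in Tconv. Pwp2, another core protein of the particle, had the smallest mean change of this role over all 16 responses, and in vivo it was still at 9.52 and 8.96 at 2 h against 7.62 and 7.42 at 0 h in Treg. Pwp2 rose by 1.72 at 2 h in Treg and by 1.68 at 8 h in Tconv, and its Tconv rise of 1.23 at 2 h was lost without 0 h number 2 or 2 h number 1 (adjusted p of 0.244 to 0.403). Rrp12, known from yeast in the export of pre-ribosomes, rose by 2.23 at 2 h in Treg (limma, adjusted p = 8.94e-07) and by 1.87 at 2 h in Tconv (limma, adjusted p = 1.43e-05). Utp14a, Utp20, Heatr1, Wdr43, Nop14, Ddx10, Bysl and Tsr1 complete the role. Changes over the 12 genes ran from 1.23 to 2.23 at 2 h in Treg and from 1.20 to 2.12 at 8 h in Tconv, and Ddx10, a helicase, was the gene not called in each case.

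The large subunit genes had 11 of 11 called at 2 h and at 8 h in Treg and at 8 h in Tconv, and 9 of 11 at 2 h in Tconv. Their changes ran from 1.19 to 2.71 (median 1.91) at 2 h in Treg and from 1.32 to 2.24 (median 2.00) at 8 h in Tconv. Rrs1, which in yeast brings ribosomal proteins and the 5S RNA into the forming large subunit, had the largest change from 0 h of any member in Treg in vivo. It read 7.15 and 7.12 at 0 h, 9.84 and 9.86 at 2 h, 9.47 and 9.18 at 8 h, 7.62 and 7.90 at 24 h, and 7.53 and 7.42 at 72 h in Treg in vivo. In Tconv in vivo it read 8.36 and 8.03 at 0 h, 9.91 and 9.62 at 2 h, 9.62 and 9.98 at 8 h, 6.88 and 7.38 at 24 h, and 7.97 and 7.50 at 72 h. It rose by 2.71 ± 0.23 (limma, adjusted p = 3.19e-08) at 2 h and 2.19 at 8 h in Treg, and by 1.57 and 1.60 in Tconv. At 24 h both Tconv arrays were below the 0 h arrays, a fall of 1.06 ± 0.23 (limma, adjusted p = 0.00674) that was lost without 0 h number 1 (adjusted p of 0.16) or 24 h number 1 (0.306).

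Wdr12 and Bop1 form a complex with Pes1 that is needed to mature the large subunit RNA. Wdr12 was at 10.13 and 9.90 at 8 h against 7.78 and 7.76 at 0 h in Tconv, the largest change from 0 h of any member in Tconv in vivo (2.24 ± 0.29; limma, adjusted p = 4.31e-06), and rose by 1.93 at 2 h in Treg. Bop1 had the smallest mean change of the role, at 9.84 and 9.50 at 2 h against 8.63 and 8.34 at 0 h in Treg. Its rise of 1.19 there was lost without 0 h number 2 or 2 h number 1 (adjusted p of 0.0754 to 0.113), while its rise of 1.48 at 8 h in Tconv was not lost without any single array. Ftsj3, a methyltransferase of the precursor, was at 10.68 and 10.57 at 8 h against 8.66 and 8.46 at 0 h in Tconv (2.06 ± 0.29; limma, adjusted p = 1.68e-05) and rose by 1.92 at 2 h in Treg. Nop2, another methyltransferase, rose by 2.16 at 2 h and 1.85 at 8 h in Treg and by 1.71 and 2.17 in Tconv, each at an adjusted p (limma) of 3.25e-05 or less. Nle1, Nop16, Rrp1b, Noc3l and the helicase Ddx18 complete the role.

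Among the scaffold proteins and regulators 4 of 6 rose at each of 2 and 8 h in Treg, and 4 at 2 h and 6 at 8 h in Tconv. Gnl3 (nucleostemin), a nucleolar GTPase, was at 10.32 and 10.23 at 2 h against 7.84 and 7.46 at 0 h in Treg, and rose there by 2.62 ± 0.39 (limma, adjusted p = 5.04e-05). Nolc1, which binds snoRNPs, was at 10.30 and 9.99 at 2 h against 8.29 and 8.30 at 0 h in Treg and at 10.18 and 10.33 at 8 h against 8.31 and 8.39 at 0 h in Tconv, rises of 1.85 ± 0.22 (limma, adjusted p = 2.67e-06) and 1.90 ± 0.22 (limma, adjusted p = 9.75e-07). Mybbp1a, a nucleolar Myb-binding protein, rose by 1.90 at 2 h and 2.09 at 8 h in Treg and by 2.08 at 8 h in Tconv. Ddx21 is a helicase known to join Pol I transcription with processing of its product.

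Ncl (nucleolin) and Npm1 (nucleophosmin), the abundant proteins that organise the nucleolus, were higher on both arrays without passing the test in Treg. Ncl was at 11.74 and 11.76 at 8 h against 10.40 and 10.42 at 0 h in Treg, and at 11.70 and 12.25 at 8 h against 9.72 and 10.41 at 0 h in Tconv. Npm1 was at 11.36 and 11.34 at 8 h against 9.999 and 9.96 at 0 h in Treg, and at 11.48 and 12.01 at 8 h against 9.51 and 10.55 at 0 h in Tconv. The differences were 1.34 for Ncl and 1.37 for Npm1 in Treg (limma, adjusted p = 0.205 and 0.0687), and 1.91 and 1.72 in Tconv (limma, adjusted p = 0.0248 and 0.00925). The Tconv call of Ncl was lost without any of its 4 arrays (adjusted p of 0.0503 to 0.185) and that of Npm1 without 0 h number 1 or 8 h number 2 (0.103 to 0.174).

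**Figure D2:**
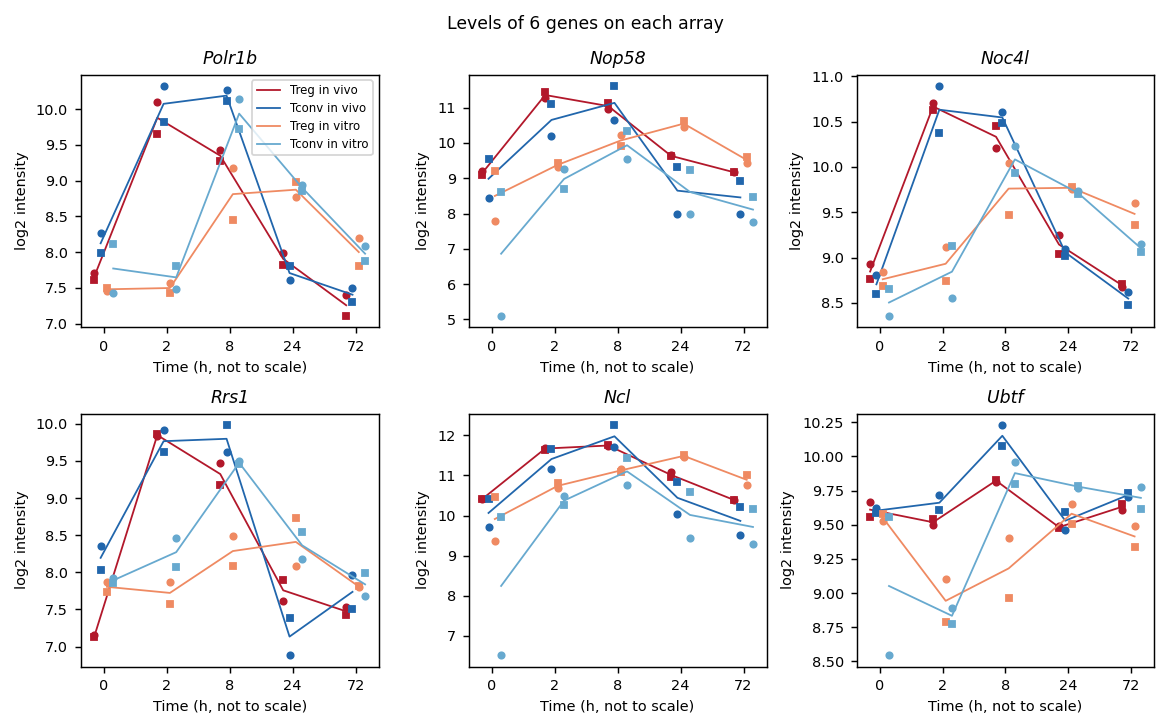
Log2 intensity of 6 members (Polr1b, Nop58, Noc4l, Rrs1, Ncl and Ubtf, 1 panel each) on every array, against time after KT3 in hours with time points evenly spaced. Circles are arrays of number 1 and squares of number 2, coloured by cell type and setting, and lines join group means; levels are not compared between genes. Ubtf stays between 9.46 and 10.23 in vivo, and Nop58 on the cultured Tconv array number 1 at 0 h is at 5.10.

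Between 2 and 8 h in vivo 42 of 43 members had a higher mean at 8 h in Tconv (median 0.44, 9 at an unadjusted p under 0.05 in limma), and 8 of 43 in Treg (median -0.26). In Tconv, 2 passed the test. Gar1 (0.86 ± 0.26; limma, adjusted p = 0.0434) and Fbl (0.77 ± 0.23; limma, adjusted p = 0.0397) rose between 2 and 8 h, where 6.33% of all genes were called higher. Neither call held without 2 h number 2 or 8 h number 1, and Gar1 was lost without 8 h number 2 as well (adjusted p of 0.0723 to 0.407 for Gar1 and 0.386 to 0.438 for Fbl). In Treg 0 members were called in this step, with 5 at an unadjusted p under 0.05 in limma (0.531% of all genes called). Between 8 and 24 h, 38 of 43 members fell in Tconv (10.9% of all genes called lower), led by Rrs1 (-2.67 ± 0.23; limma, adjusted p = 2.18e-08), Nop58 (-2.49) and Nop2 (-2.48). Nop58 was lost without 24 h number 1 or 8 h number 2 (adjusted p of 0.137 to 0.184).

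In Treg 25 of 43 fell between 8 and 24 h (2.21% of all genes called lower), led by Rrs1 (-1.57 ± 0.23; limma, adjusted p = 0.000277), Rrp12 (-1.51) and Mybbp1a (-1.45). The Treg count came to 13 without 24 h number 1, 12 without 24 h number 2 and 11 without 8 h number 1. Between 24 and 72 h in vivo 0 members were called in either cell type, where 0.0724% of all genes were called in Treg and 0.861% in Tconv. At an unadjusted p under 0.05 in limma there were 7 members in Treg and 6 in Tconv. By group means 35 members were highest at 2 h in Treg in vivo and 8 at 8 h, namely Polr1c, Ubtf, Fbl, Nhp2, Gar1, Ncl, Npm1 and Mybbp1a, while 42 of 43 were highest at 8 h in Tconv. The time of the highest mean was not tested.

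**Figure D3:**
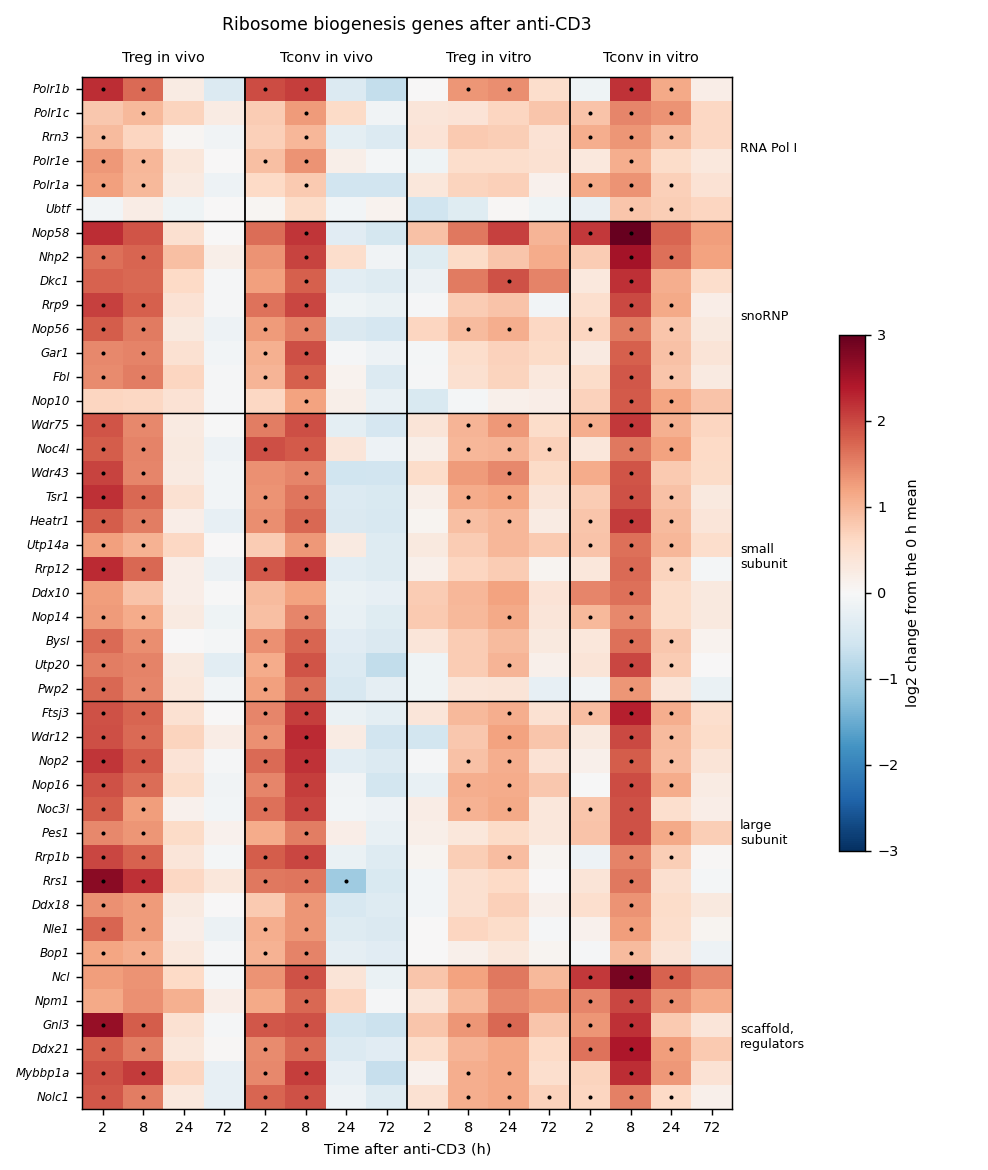
Log2 change against 0 h (colour) of the 43 members (rows, grouped by role) at 2, 8, 24 and 72 h after KT3 in each cell type and setting (columns); dots mark an adjusted p under 0.05 (limma). The in vivo columns of 2 and 8 h are the strongest blocks together with 8 h in cultured Tconv, and Ubtf shows values from -0.61 to 0.82.

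Whether Treg and Tconv differed in these responses was tested as the Treg response minus the Tconv response. The median of this difference over the members was 0.39 at 2 h, -0.31 at 8 h, 0.56 at 24 h and 0.32 at 72 h in vivo. Only Rrs1 at 24 h was called in vivo, with a difference of 1.68 ± 0.33 (limma, adjusted p = 0.0432; 0.0241% of all genes called higher). It is the change of 0.62 in Treg set against the fall to below the 0 h level in Tconv, and the call was lost without any of 7 of its 8 arrays (adjusted p of 0.0853 to 0.494), all but Tconv 24 h number 2. At 2, 8 and 72 h 0 members were called, with 1, 0 and 1 at an unadjusted p under 0.05 in limma (0.0483%, 0.233% and 0.0161% of all genes called). The larger Treg counts at 2 h and the larger Tconv counts at 8 h were therefore not shown to differ between the cell types.

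At 0 h in vivo Rrs1 was lower in Treg, at 7.15 and 7.12, than in Tconv, at 8.36 and 8.03, a difference of -1.06 ± 0.23 (limma, adjusted p = 0.00619; 0.515% of all genes called lower in Treg). It was lost without Tconv number 1 (adjusted p of 0.148) or Treg number 1 or 2 (0.0711 and 0.0582). Over the members the median difference at 0 h was -0.34 in vivo, with 6 at an unadjusted p under 0.05. At 0 h in vitro 0 members were called, with a median of 0.27 and 7 at an unadjusted p under 0.05 in limma (11.2% of all genes called). Without the Tconv array that stood apart the median was -0.28. The in vitro count came to 23 members higher in Treg without Tconv number 2, which leaves the array that stood apart as the only Tconv array, and to 7 without Treg number 1.

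In cultured splenocytes the most members were called at 24 h in Treg and at 8 h in Tconv. In Treg 0 of 43 were called at 2 h (5.64% of all genes called in either direction; 5 members at an unadjusted p under 0.05 in limma). In the same cells 12 rose at 8 h (4.52% called higher), 19 at 24 h (5.01%) and 2 at 72 h (7.34%). The Treg medians were 0.16, 0.80, 1.01 and 0.44 at the 4 times. In Tconv 16 rose at 2 h (19.5% of all genes called higher), 43 at 8 h (15.7%) and 30 at 24 h (19.4%). At 72 h 0 were called (7.55% in either direction; 10 members at an unadjusted p under 0.05 in limma). The Tconv medians were 0.65, 1.84, 0.88 and 0.35 at the 4 times. By group means 38 members were highest at 24 h in cultured Treg and 43 at 8 h in cultured Tconv. Set against 8 h, 30 of 43 members were lower at 24 h on the Treg arrays of number 1 (median -0.115). On those of number 2 all 43 were higher (median 0.44). The time of the highest mean was not tested in culture either.

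The Tconv counts leaned on the 0 h array that stood apart. Its members' median level was 7.77 against 8.65 on the 0 h array of number 2, with 8.66 and 8.80 at 2 h, 10.12 and 9.81 at 8 h, 8.99 and 9.08 at 24 h, and 8.49 on both at 72 h. Without it no member rose at 2 h and Ubtf fell by 0.72 (limma, adjusted p = 0.0114), 31 rose at 8 h, and 1 rose at 24 h (Noc4l, 1.07; limma, adjusted p = 0.026), with medians of 0.11, 1.27 and 0.33. At 72 h 0 were called without it, and the median turned to -0.19, against 0.35 with it. Without the other 0 h array 30 rose at 2 h and 28 at 72 h. Leaving out 2 h number 1 or 2 gave 3 or 6 at 2 h, and leaving out 24 h number 1 or 2 gave 9 or 8 at 24 h.

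For 8 h, 31 of the 43 calls in cultured Tconv held without any single array. Polr1b read 7.43 and 8.12 at 0 h, 7.49 and 7.81 at 2 h, 10.15 and 9.73 at 8 h, 8.94 and 8.86 at 24 h, and 8.09 and 7.87 at 72 h in these cells. Its rise at 8 h was 2.17 ± 0.24 (limma, adjusted p = 1.56e-06), and 1.82 (limma, adjusted p = 9.01e-05) without the array that stood apart. The largest changes at 8 h, in Nop58 (3.07) and Ncl (2.86), rested on that array. Nop58 was at 5.10 on it and 8.62 on the other 0 h array, and its change without it was 1.32 (limma, adjusted p = 0.196), while that of Ncl was 1.13 (limma, adjusted p = 0.125). Nhp2 came next, at 10.67 and 10.37 at 8 h against 7.37 and 8.70 at 0 h, a rise of 2.49 ± 0.39 (limma, adjusted p = 6.79e-05) that held without any single array.

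In cultured Treg the members' median level was 8.24 and 8.30 at 0 h, 8.67 and 8.36 at 2 h, 9.29 and 8.86 at 8 h, 9.22 and 9.25 at 24 h, and 9.12 and 8.77 at 72 h. Polr1b read 7.46 and 7.50 at 0 h, 7.58 and 7.42 at 2 h, 9.18 and 8.45 at 8 h, 8.77 and 8.98 at 24 h, and 8.20 and 7.81 at 72 h. It rose by 1.33 ± 0.24 (limma, adjusted p = 0.000969) at 8 h, a call that was lost without 8 h number 1 (adjusted p of 0.0879), and by 1.39 ± 0.24 (limma, adjusted p = 0.000726) at 24 h, which held without any single array. Noc4l rose by 1.01 at 24 h, the other of the 2 calls at 24 h that held, and Noc4l (0.72) and Nolc1 (0.70) were the 2 calls at 72 h. The call of Noc4l was lost without either 0 h array or 72 h number 1 (adjusted p of 0.0804 to 0.294), and that of Nolc1 without 0 h number 1 or 72 h number 1 (0.362 to 0.415).

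The Treg counts in culture changed with single arrays. At 8 h the count was 3 without 0 h number 1 and 0 without 8 h number 1, at 24 h 4 without 0 h number 1 and 5 without either 24 h array, and at 72 h 1 without 0 h number 1 and 0 without 72 h number 1. Leaving out the Tconv array that stood apart, which is in none of these groups but adds to the shared spread, gave 24, 32 and 10 at 8, 24 and 72 h. The within-number medians at 8 h were 1.23 and 0.45 for numbers 1 and 2, and at 24 h 0.97 and 0.92.

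The markers of other blood cells moved on the cultured arrays of number 1. Between the Treg arrays of number 1 their mean changed by -0.27, -0.46, -0.44 and -0.46 at 2, 8, 24 and 72 h, with 7, 5, 7 and 7 of 30 higher. Between the Tconv arrays of number 1, whose 0 h array is the one that stood apart, it changed by -0.47, -0.43, -0.50 and -0.36, with 5, 3, 5 and 6 of 30 higher. Between arrays of number 2 it changed by -0.07 to 0.05 in Treg and by -0.18 to 0.15 in Tconv. The members' medians in the Tconv pairs of number 1 were 1.24, 2.33, 1.37 and 0.89, and in those of number 2 they were 0.12, 1.25, 0.53 and -0.17. The part of the other cells in these counts was not tested.

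The steps between times in culture were called mostly in Tconv. Between 2 and 8 h, 30 of 43 members rose in Tconv (4.56% of all genes called higher), led by Polr1b (2.29 ± 0.24; limma, adjusted p = 4.64e-07), Nop16 (1.97) and Dkc1 (1.89). Dkc1 was lost without any of its 4 arrays (adjusted p of 0.0591 to 0.193), and the count was 18 without 2 h number 1 and 15 without 8 h number 1. Between 8 and 24 h, 15 fell in Tconv (0.909% of all genes called lower), among them Gnl3 (-1.42), Noc3l (-1.41) and Ftsj3 (-1.23), and 0 were called without 24 h number 1 or 8 h number 1.

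In cultured Treg 5 members rose between 2 and 8 h (2.92% of all genes called higher), namely Wdr12 (1.35), Nop16 (1.32), Polr1b (1.31), Nop2 (0.92) and Noc4l (0.83), with 1 call left without 2 h number 2 and 0 without 8 h number 1. Between 8 and 24 h 0 members and 0 of all genes were called by limma in cultured Treg, with 0 members at an unadjusted p under 0.05. Between 24 and 72 h Polr1b (-0.87) and Rrp1b (-0.84) fell in cultured Treg (1.41% of all genes called lower), and 0 were called when any 1 of the 4 arrays was left out. In cultured Tconv 0 members were called in this step, with 16 at an unadjusted p under 0.05 in limma (0.105% of all genes called).

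Between the cultured cell types 1 member differed in its response by the test. The median of the Treg response minus the Tconv response was -0.95 at 8 h in vitro, with 26 members at an unadjusted p under 0.05, and -0.49 without the Tconv array that stood apart. Only Fbl was called (-1.37 ± 0.33; limma, adjusted p = 0.0498; 0.241% of all genes called lower), with -1.15 and an adjusted p of 0.0956 in limma without that array. The call was also lost without Tconv 8 h number 1 or 2, Treg 0 h number 1 or 2, or Treg 8 h number 2. Without Tconv 0 h number 2 the count of lower members was 21 at 2 h, 36 at 8 h, 6 at 24 h and 5 at 72 h, and without Treg 8 h number 1 it was 2 at 8 h. At 2, 24 and 72 h 0 were called with all arrays, with 2, 1 and 1 at an unadjusted p under 0.05 in limma (0.145%, 0.491% and 1.79% of all genes called). The fit without Tconv 0 h number 2 keeps the array that stood apart as the only Tconv array at 0 h.

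The setting was compared through each arm's change against its own 0 h arrays, since age, sex and handling go with the setting. At 2 h members with a higher in vivo response were called in both cell types. In Treg 25 of 43 members had a higher in vivo response (1.89% of all genes called higher), with a median difference of 1.48. Rrs1 led, with a response of 2.71 in vivo and -0.08 in vitro, a difference of 2.79 ± 0.33 (limma, adjusted p = 8.56e-06). Wdr12 (2.48), Polr1b (2.20) and Nop2 (2.20) followed, and 10 of the 25 calls held without any single array. The count was 10 without in vivo 2 h number 1, and 13 without in vivo 0 h number 2 or in vitro 2 h number 2.

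In Tconv 8 members had a higher in vivo response at 2 h (0.821% of all genes called higher), and 32 of 43 differences were above 0, with a median of 0.59 and a lowest of -0.79. The 8 were Polr1b (2.08 ± 0.34; limma, adjusted p = 0.000858), Rrp1b (1.96), Noc4l (1.59), Nop2 (1.55), Rrp12 (1.53), Nop16 (1.47), Rrs1 (1.19) and Nolc1 (1.10). Polr1b had a response of 1.95 in vivo and -0.12 in vitro at this time. Polr1b, Rrp1b and Noc4l held without any single array. Leaving out in vitro 0 h number 2 keeps the array that stood apart as the only cultured Tconv array at 0 h. The count was 3 without in vivo 0 h number 2 or 2 h number 1, 3 or 5 without in vitro 2 h number 1 or 2, and 16 (10 higher and 6 lower in vivo) without in vitro 0 h number 2. Without the array that stood apart it was 11, with a median difference of 1.22.

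At 8 h only Rrs1 in Treg was called (1.70 ± 0.33; limma, adjusted p = 0.0137; 0.0322% of all genes called higher), and that call was lost without number 1 of either in vivo group, in vitro 0 h number 1 or in vitro 8 h number 2 (adjusted p of 0.081 to 0.108). In Tconv at 8 h 0 were called, with 0 at an unadjusted p under 0.05 in limma (0.491% of all genes called). Without in vitro 0 h number 2, 13 were lower in vivo. At 24 h Polr1b (-1.55) and Rrs1 (-1.53) were lower in vivo in Tconv (0.443% of all genes called lower; 31 members at an unadjusted p under 0.05). The count was 0 without the array that stood apart, in vitro 24 h number 2, in vivo 0 h number 1 or in vivo 24 h number 1, 1 without in vitro 24 h number 1, and 38 without in vitro 0 h number 2. At 72 h 0 were called in either cell type, with 5 members in Treg and 15 in Tconv at an unadjusted p under 0.05 in limma (1.58% and 0.0885% of all genes called). Without in vitro 0 h number 2, 31 were lower in vivo in Tconv. At 24 h in Treg 0 were called, with 9 at an unadjusted p under 0.05 in limma (0.0966% of all genes called). The Tconv fits without in vitro 0 h number 2 keep the array that stood apart as the only cultured Tconv array at 0 h.

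**Figure D4:**
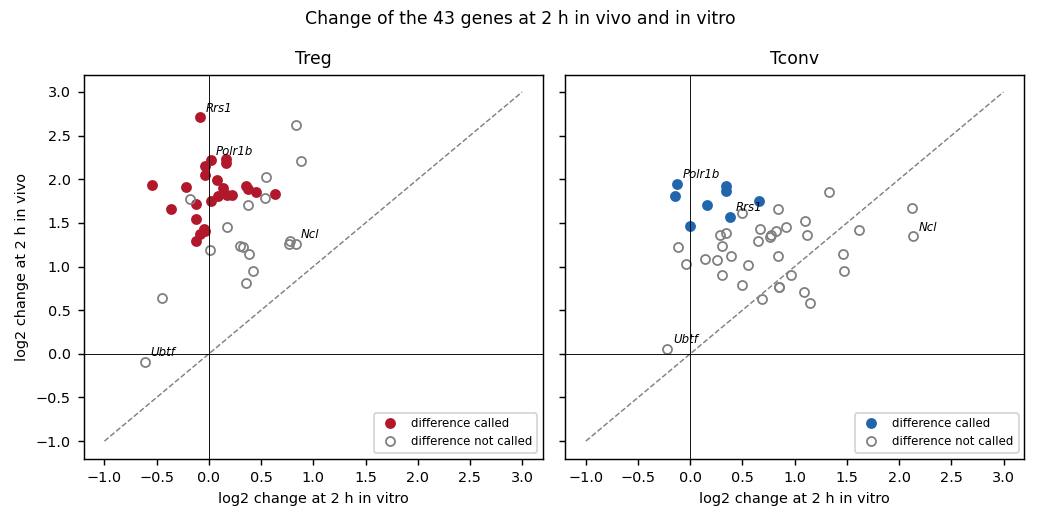
Log2 change of the 43 members at 2 h in vivo (vertical axis) against the change at 2 h in vitro (horizontal axis), for Treg on the left and Tconv on the right; points are genes, filled where the difference was called, and the dashed line marks equal changes. In Treg all 43 points lie above the line, with Rrs1 at -0.08 in vitro and 2.71 in vivo.

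The rat IgG arrays served as the background of an injection. The members' median level at 24 h was 8.19 on the Treg IgG array and 8.75 on the Tconv IgG array, against 8.36 and 8.07 and against 8.75 and 8.60 at 0 h. Neither IgG comparison with 0 h called any member or any of the 12425 genes in limma, and 0 members reached an unadjusted p under 0.05. KT3 against IgG at 24 h called 0 members in Treg (median 0.39; 7 at an unadjusted p under 0.05 in limma; 0.274% of all genes called). In Tconv Rrs1 was lower, at 6.88 and 7.38 after KT3 against 8.26 after IgG (-1.13 ± 0.28; limma, adjusted p = 0.036; 0.0724% of all genes called lower), and the call was lost without KT3 24 h number 1 (adjusted p of 0.533). IgG was not measured at 2 or 8 h, and each IgG group is 1 array that was assumed to vary like the other groups.

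The members were set beside other genes of the same pathway, listed by function. Over all genes 5.04% were called higher at 2 h in Treg and 14.4% at 8 h in Tconv, the comparisons given here, and no test compared the lists with the members. Of 31 other small subunit processome genes, 17 rose at 2 h in Treg and 24 at 8 h in Tconv (medians 1.09 and 1.35), among them Nat10, an RNA acetyltransferase (1.88 in Treg), and Tbl3 (2.25 in Tconv). Of 39 other large subunit assembly genes, 24 rose at 2 h in Treg and 33 at 8 h in Tconv (medians 1.17 and 1.35), among them Sdad1 (2.44) and Urb2 (2.07) in Treg and Mrto4 (2.33) and Lyar (2.16) in Tconv. Of 49 cytosolic ribosomal protein genes, which form the ribosome itself, 1 rose at 2 h in Treg (Rpl12, 1.22) and 3 at 8 h in Tconv (Rpl14, 0.99; Rpl7a, 0.61; Rps2, 0.45), with medians of 0.12 and 0.27. The call of Rpl12 was lost without 0 h number 2 or 2 h number 1 (adjusted p of 0.0966 to 0.0975). Those of Rpl14 and Rpl7a were lost without either 0 h array or 8 h number 1 (0.0502 to 0.249), and that of Rps2 without 0 h number 2 or either 8 h array (0.0502 to 0.113). Many ribosomal protein genes have near-identical pseudogene copies, and 49 of the 71 listed had a row of their own.

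Of the 12 genes of the RNA exosome, which trims the precursor from its end, 3 rose at 2 h in Treg and 9 at 8 h in Tconv (medians 0.44 and 1.13). Its nuclease Dis3 rose by 1.96 in Treg (limma, adjusted p = 0.000617) and 2.29 in Tconv (limma, adjusted p = 4.7e-05). Of 9 other Pol I subunit and selectivity factor genes, 1 rose at 2 h in Treg (Polr1g, 1.61; limma, adjusted p = 4.59e-07) and 4 at 8 h in Tconv. Of 18 Pol III genes, 3 rose at 2 h in Treg, led by Polr3d (1.56) and Polr3e (1.54), and 7 rose and 1 fell at 8 h in Tconv, where Polr3gl fell by 1.03 and Polr3g, which encodes the alternative form of the same subunit, rose by 1.24. The call of Polr3g was lost without 0 h number 1 or 8 h number 2 (adjusted p of 0.0684 to 0.0733). Of 13 Pol II genes 0 were called at 2 h in Treg (1 at an unadjusted p under 0.05 in limma) and 6 rose at 8 h in Tconv.

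**Figure D5:**
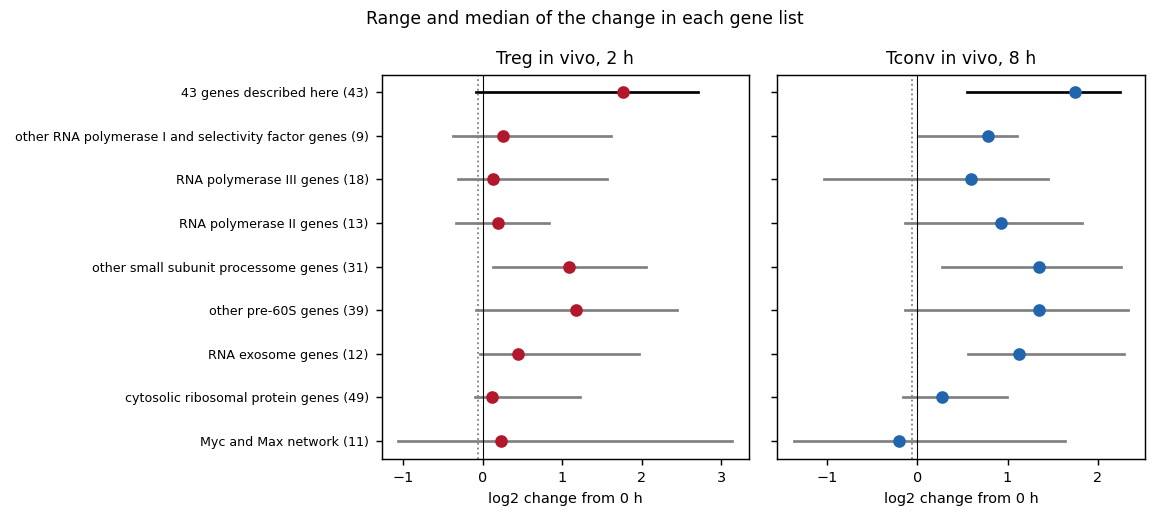
Log2 change against 0 h of the members and of each other gene list, for Treg in vivo at 2 h and Tconv in vivo at 8 h; lines span the lowest to the highest gene, the point is the median, and the dotted line is the median of all genes tested. The median of the 49 ribosomal protein genes is 0.12 in Treg and 0.27 in Tconv, against 1.77 and 1.75 for the members.

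Myc, whose protein binds E-boxes with Max, was followed as a gene outside the members. In Treg in vivo it read 9.13 and 8.74 at 0 h, 12.19 and 11.97 at 2 h, 10.99 and 10.91 at 8 h, 9.41 and 9.54 at 24 h, and 9.06 and 8.95 at 72 h. In Tconv in vivo it read 9.22 and 9.23 at 0 h, 12.27 and 11.74 at 2 h, 10.73 and 10.98 at 8 h, 8.16 and 9.34 at 24 h, and 8.37 and 8.54 at 72 h. The 2 h arrays were highest in both. By group means 35 of 43 members were highest at 2 h in Treg in vivo, and 42 of 43 at 8 h in Tconv in vivo. In cultured Treg Myc had a change of 0.77 at 2 h that was not called (limma, adjusted p = 0.401), and its response at 2 h was 2.37 ± 0.64 higher in vivo (limma, adjusted p = 0.0326), a call lost without any of its 8 arrays (adjusted p of 0.0597 to 0.151). In cultured Tconv Myc rose by 2.60 at 2 h (limma, adjusted p = 0.000278), and by 1.31 (limma, adjusted p = 0.0156) without the array that stood apart, at a time when no member rose without that array. Mxd4, a Max partner known to oppose Myc, fell by 1.07 at 2 h in Treg in vivo, a call lost without number 1 of either group (adjusted p of 0.087 to 0.173). It fell by 1.61 at 8 h in Treg in vivo (limma, adjusted p = 0.000116) and by 1.37 at 8 h in Tconv in vivo (limma, adjusted p = 0.000222), and rose by 0.97 at 2 h in cultured Tconv, a call lost without 0 h number 1 or 2 h number 1 (adjusted p of 0.0544 to 0.352). Mxd1, another Max partner known to oppose Myc, rose where Mxd4 fell in Treg in vivo, by 0.95 at 2 h, a call lost without 0 h number 2 or either 2 h array (adjusted p of 0.0786 to 0.251), and by 1.66 at 8 h (limma, adjusted p = 7.63e-05). In Tconv in vivo its changes of 0.46 and 0.50 at 2 and 8 h were not called (limma, adjusted p = 0.447 and 0.16). At 2 h in culture Mxd1 rose by 1.66 in Treg (limma, adjusted p = 4.96e-05) and by 2.36 in Tconv (limma, adjusted p = 1.74e-07). Mxi1, another gene of the Myc and Max network, fell by 0.59 at 2 h in Treg in vivo (limma, adjusted p = 0.0408). It rose by 2.02 at 2 h in cultured Treg (limma, adjusted p = 1.8e-08), where neither Myc nor any member was called.

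Over the 20 means of the KT3 and 0 h groups most members followed a common profile. The Pearson correlation of a member with the mean of the other members ran from 0.995 (Ftsj3), 0.99 (Heatr1) and 0.98 (Tsr1) to 0.753 (Ddx10), 0.657 (Polr1c), 0.636 (Nop10) and 0.472 (Ubtf). These 20 points share arrays and 0 h groups, and no test was made. Outside the members, the 10 genes with the profile most like the members' mean were Nsun2 (0.993), Pwp1 (0.99), Chchd4 (0.988), Ddx27 (0.984), Ctps (0.981), Mettl2 (0.98), Timm8a1 (0.98), Pdcd11 (0.979), Nifk (0.979) and Utp4 (0.974). Of the 50 most alike of 12382 genes ranked, 12 were on the pathway lists, which hold 182 of the genes ranked.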

How the data were processed

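The authors deposited linear intensities, 1 value per transcript cluster and array, made from Affymetrix ST1.0 gene arrays hybridised with amplified RNA and preprocessed with RMA, per the series' design text; the submitters' processing notes name Affymetrix Power Tools. No version, genome build or annotation release is stated there. Of 24922 clusters 21425 carried 1 symbol, 1399 several and 2098 none in the platform table. Intensities ran from 4.84 to 29756 and array medians from 87.6 to 116.4. The platform's signal over background was not given, so the dim filter stands in for detection.

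Values were log2-transformed with no offset. A gene was kept when at least 2 arrays lay above that array's median over all clusters, which removed 7327 of 19752. limma 3.58.1 (R 4.3.3) fitted 22 group means on 42 arrays (20 residual and 5.01 prior degrees of freedom), with two-sided moderated tests and Benjamini-Hochberg adjustment over 12425 genes per comparison. Tables and figures used Python 3.11.15, numpy 2.4.6, pandas 2.3.3 and matplotlib 3.10.9. On simulated data for Tconv in vivo at 8 h against 0 h (200 of 12425 genes changed), 44% of changes of 1 and 91% of changes of 2 on the log2 scale were recovered, with 3 false calls. In the data 1794 genes were called higher in this comparison, so the simulation held fewer changed genes and its recovery may not carry over. Arrays with the same number did not deviate together in every pair of groups (r of -0.171 to 0.775 in vivo, median 0.305, and -0.447 to 0.709 in vitro, median 0.222, with 32 and 28 of 45 pairs over 0.1). The number goes mostly with sorting in vivo. In vitro it goes with sex and age in every group, and the labels give no pairing of samples beyond that. The number was no block in the results above and is an alternative.

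The members, roles and pathway lists were chosen with earlier results of these data known. Genes were named by rule: per role the 2 members with the largest and the 1 with the smallest mean change over the 16 responses, up to 3 called members with the largest rise or fall per comparison and all of a count of 5 or fewer, up to 3 called genes per pathway list and direction, and the 10 genes outside the set with the most similar profile. Other members are named only to account for the set. Alternatives were quantile normalization, median centring, no dim filter, the mean of a symbol's clusters, the number as block, leaving out each array, and leaving out the array that stood apart.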

Additional observations from a re-analysis of the deposited data

Results flagged for a closer look

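Responses that differed between cell types by the test of the difference were those of 1 member at 24 h in vivo, Rrs1, whose Treg response was higher than the Tconv response by 1.68 on the log2 scale, and of 1 member at 8 h in vitro, Fbl, whose Treg minus Tconv difference was -1.37. Responses that differed between settings were those of 25 members at 2 h in Treg, with Rrs1 at 2.79 (in vivo minus in vitro), of 8 members at 2 h in Tconv, with Polr1b at 2.08, of 1 member at 8 h in Treg, Rrs1 at 1.70, and of 2 members at 24 h in Tconv, Polr1b at -1.55 and Rrs1 at -1.53. Setting goes with the age of the mice and with culture, and their part in these differences cannot be told apart. Of the calls between settings at 2 h, 10 of 25 in Treg and 3 of 8 in Tconv held without any single array. None of the other calls named in this paragraph held so. Rrs1 and Fbl between cell types were also lost with quantile normalization, median centring or no dim filter. Without the array that stood apart the Fbl call and both Tconv calls at 24 h were lost. No group held the 4 or more arrays that a test for a single far array needs.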

How the results depend on the processing

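Counts of members called are given here for each setting that moved them by over 1.5 times. Of 50 comparisons 37 to 49 stayed within that range under each alternative other than leaving out single arrays. The cause of the changes was not tested. Quantile normalization gave 17 and 2 in cultured Tconv at 24 and 72 h. In cultured Treg it gave 1 (lower) at 2 h, 5 (4 higher, 1 lower) at 8 h, 10 at 24 h and 0 at 72 h. It gave 0 for the step of 2 to 8 h in Tconv in vivo and for KT3 against IgG in Tconv. Treg minus Tconv came to 0 in vivo at 24 h, 6 in vitro at 8 h and 7 at 0 h in vitro (3 higher, 4 lower). In vivo minus in vitro came to 20 in Tconv at 2 h. It also turned the sign of the members' median in cultured Treg at 2 h (-0.03, against 0.16 in the values above) and at 0 h in vitro (-0.06, against 0.27). Median centring shifted the median of all genes in cultured Tconv at 2 h to 0.25, against 0.06. It gave 3 in cultured Tconv at 72 h, 8 for its step of 8 to 24 h and 0 for the step of 24 to 72 h in cultured Treg. Treg minus Tconv came to 0 in vivo at 24 h, 0 in vitro at 8 h and 1 at 0 h in vitro. In vivo minus in vitro came to 16 in Treg and 5 in Tconv at 2 h. Without the dim filter there was 1 in cultured Treg at 72 h, and 0 for the step of 2 to 8 h in Tconv in vivo and for Treg minus Tconv in vivo at 24 h and in vitro at 8 h. The last was also 0 with the mean of all clusters. With the number as a replicate block there were 8 and 3 at 72 h in cultured Treg and Tconv, and 8 and 4 for the steps of 2 to 8 h and 24 to 72 h in cultured Treg. The block gave 5 for Treg minus Tconv in vitro at 8 h, 2 and 4 at 0 h in vivo and in vitro, and, for in vivo minus in vitro, 2 in Treg at 8 h and 4 in Tconv at 24 h. It moved no other count by over 1.5 times. Without the cultured Tconv array that stood apart the 16 rises called at 2 h in cultured Tconv were lost. The members' median there was 0.11, against 0.65 with that array. There was 1 at 24 h, with 26 for its step of 8 to 24 h. There were 2, 24, 32 and 10 at 2, 8, 24 and 72 h in cultured Treg, with 12 and 7 for its steps of 2 to 8 h and 24 to 72 h. The step of 2 to 8 h in Tconv in vivo came to 5. Treg minus Tconv came to 0 in vitro at 8 h and 2 at 0 h in vivo, and in vivo minus in vitro to 0 in Tconv at 24 h.

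Leaving out each array in turn gave 10 to 27 in Tconv in vivo at 2 h, 0 to 1 at 24 h and 0 to 2 for the step of 2 to 8 h. In Treg in vivo it gave 23 to 31 at 8 h and 11 to 17 for the step of 8 to 24 h. Treg minus Tconv came to 0 to 1 in vivo at 24 h and at 0 h, and KT3 against IgG in Tconv to 0 to 1. In cultured Tconv it gave 1 to 30, 1 to 40 and 0 to 28 at 2, 24 and 72 h, and 15 to 25 and 0 to 13 for the steps of 2 to 8 h and 8 to 24 h. In cultured Treg it gave 0 to 13, 4 to 24 and 0 to 3 at 8, 24 and 72 h, and 0 to 5 and 0 for the steps of 2 to 8 h and 24 to 72 h. Treg minus Tconv in vitro came to 0 to 21, 0 to 36, 0 to 6 and 0 to 5 at 2, 8, 24 and 72 h, and to 0 to 23 at 0 h. In vivo minus in vitro came to 10 to 23 and 0 to 1 in Treg at 2 and 8 h, and to 3 to 16, 0 to 13, 0 to 38 and 0 to 31 in Tconv at 2, 8, 24 and 72 h. A group left with 1 array was assumed to vary like the others. For cultured Tconv at 0 h that array is the one that stood apart when number 2 is left out.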
